A study of Mus musculus with 10 samples.

Results

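Late disease-associated microglia (DAM) genes that encode surface and secreted proteins were followed in the hippocampus of female P301S mice treated with dihydrotestosterone (DHT). The 10 genes were Clec7a, Cd52, Axl, Gpnmb, Cd9, Cd63, Lgals3, Spp1, Lpl and Igf1. They were found by their symbols among 56884 gene identifiers in the table of raw counts, and all 10 were measured in 5 void-treated and 5 DHT-treated females, 1 library per mouse. All mice were ovary-intact females carrying hTau, the human Tau transgene with the P301S mutation of the PS19 line, so the void-treated controls carried it too. The transgene is driven by the mouse Prnp promoter, which is active in neurons and other brain cells. DHT, an androgen that cannot be converted to estrogen, was given at 6 months of age by a subcutaneous implant filled along 10 mm, and void-treated females received an empty implant. Hippocampi were collected after 12 weeks, at 9 to 9.5 months. No wild-type or male mice were among the samples, so the comparison is DHT against void within tauopathy females.

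Microglia are the resident immune cells of the brain. Close to protein aggregates, dying neurons and damaged myelin they leave their homeostatic state in steps: an early step raises Tyrobp, Apoe and lysosomal genes, and a later step that depends on the receptor Trem2 raises receptors, tetraspanins, lipid-handling enzymes and secreted factors. Many of the late genes are made by other brain cells as well: Cd9 and Cd63 by glia and by choroid plexus epithelium, Lpl by neurons and oligodendrocyte precursors, Igf1 by interneurons, and Axl by astrocytes and vessel cells. In bulk tissue, more microglia and more RNA of a gene per cell therefore cannot be told apart.

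Promoters are shown for the gene with the largest change (Clec7a) and for the 3 genes whose promoters held a match to a searched transcription factor motif. Each runs from 250 bases before to 50 bases after a transcription start, 5′ to 3′, from RefSeq on GRCm38.p6, and 8 of the 10 genes were listed there, with Lpl and Cd52 not among them. Capitals mark the motif matches.
Clec7a, chr6:129472730-129473029, minus strand: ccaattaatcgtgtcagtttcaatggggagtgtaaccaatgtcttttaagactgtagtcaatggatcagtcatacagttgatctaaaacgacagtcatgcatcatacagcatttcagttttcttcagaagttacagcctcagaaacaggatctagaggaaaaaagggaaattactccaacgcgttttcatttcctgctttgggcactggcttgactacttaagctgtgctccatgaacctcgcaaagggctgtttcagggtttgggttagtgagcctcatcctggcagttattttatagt
Spp1, chr5:104434861-104435160, plus strand: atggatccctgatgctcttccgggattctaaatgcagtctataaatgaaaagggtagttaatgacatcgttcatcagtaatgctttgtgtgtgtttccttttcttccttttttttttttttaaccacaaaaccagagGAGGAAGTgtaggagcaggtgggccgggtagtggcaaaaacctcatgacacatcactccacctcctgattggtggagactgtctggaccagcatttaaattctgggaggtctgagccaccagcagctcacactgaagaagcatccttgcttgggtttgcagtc
Gpnmb, chr6:49036268-49036567, plus strand: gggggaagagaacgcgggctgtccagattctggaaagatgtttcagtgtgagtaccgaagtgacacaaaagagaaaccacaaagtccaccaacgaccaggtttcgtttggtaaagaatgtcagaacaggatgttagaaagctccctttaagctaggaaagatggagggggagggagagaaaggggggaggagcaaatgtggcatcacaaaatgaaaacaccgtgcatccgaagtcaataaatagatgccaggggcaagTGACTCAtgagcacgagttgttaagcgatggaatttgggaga
Igf1, chr10:87860861-87861160, plus strand: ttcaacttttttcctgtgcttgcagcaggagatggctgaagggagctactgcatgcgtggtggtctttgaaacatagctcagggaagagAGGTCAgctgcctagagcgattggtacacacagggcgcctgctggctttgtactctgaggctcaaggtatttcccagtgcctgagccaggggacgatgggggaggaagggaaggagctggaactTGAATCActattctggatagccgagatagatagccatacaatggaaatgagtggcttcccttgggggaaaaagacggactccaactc
Motifs were searched on both strands. The PU.1 letters GAGGAAGT, for the factor that sets macrophage and microglia identity, stood in Spp1 at -113 from the start and in 3.20% of 32851 promoters. The AP-1 letters TGANTCA stood in Gpnmb at 8 bases after the start and in Igf1 at -37, and in 7.81% of all promoters. The core letters AGGTCA of nuclear receptors such as TR4 (Nr2c2) stood in Igf1 at -161, and in 16.3% of all promoters. The E-box CACGTG, read by the Mitf family, was in none of the 8 genes and in 7.15% of all promoters. A direct repeat of AGGTCA, with 1 base between (in 0.0396% of promoters) or 2 bases between (0.0091%), was in none of the 8. An androgen response element, searched as AGAACA, any 3 bases and TGTTCT, was in none of the 8 and in 0.0091% of promoters. TATAAA, in 13.6% of all promoters, lay in Clec7a at 42 bases after the start, on the opposite strand as TTTATA, and in Spp1 at -211. It is not in capitals. The promoters of Cd9 and Lgals3 held 18 CG pairs each, against a median of 7 over all promoters. These shares are per promoter. Over 27025 genes, with any listed promoter counting, the shares were 3.69% for PU.1, 8.97% for AP-1, 18.1% for AGGTCA and 8.09% for the E-box. For TATAAA the share of genes was 15.7%. Spp1 and Clec7a each had another listed promoter, not shown, without a match. A match describes letters in these windows and not a bound site.

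Total counts per mouse ranged from 27188854 to 47113661 with void and from 33523527 to 45947784 with DHT (two-sided exact permutation test, p = 0.365). Hippocampal markers such as Zbtb20 were present in every library, at summed levels of 1106 to 1656 CPM (normalised counts scaled to a common library size) with void and 1349 to 1677 with DHT. Pan-microglia markers, which include Ctss, C1qa and Ptprc, summed to 232.6 to 320.5 CPM with void and 401.7 to 761.5 with DHT, with DHT replicate 2 lowest and DHT replicate 1 highest of the treated mice. Choroid plexus markers, most abundantly Enpp2, summed to 360.7 to 3269 CPM with void and 3908 to 5742 with DHT. Homeostatic microglia markers, most abundantly Sparc, summed to 734.2 to 832.4 CPM with void and 976.5 to 1289 with DHT. These 3 lists lay apart between the groups. The p of each was 0.00794 from a two-sided exact permutation test, the lowest that this design can give, and 0.0423 after Benjamini-Hochberg adjustment over 16 marker lists. Border macrophage markers summed to 15.1 to 33.1 CPM with void and 19.2 to 29.3 with DHT, monocyte and neutrophil markers to 0.607 to 2.02 and 1.3 to 2.23, and lymphocyte markers to 0.443 to 0.831 and 0.718 to 1.69. No marker of these lists was at 0 in all libraries. The part of any of these cell types in the results below was not tested. By the numbers in their titles, all void libraries come before the DHT libraries, and this order cannot be told apart from the treatment.

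With DHT, 6 of the 10 genes rose at a Benjamini-Hochberg adjusted p under 0.05 from edgeR's quasi-likelihood test and 0 fell, although Axl and Cd63 turned to negative values when libraries were scaled on pan-microglia genes, and 0 of the 10 passed with the choroid plexus level of each library as a covariate. Over all 17622 genes tested, 5.22% rose and 0.261% fell, and with the covariate 0 of them (0.00%) passed. The 6 were Clec7a, Cd52, Lgals3, Cd9, Cd63 and Axl. Clec7a, Cd52, Lgals3 and Cd9 also passed a log2 fold change of 1, a limit that 2.17% of all genes passed upward. When edgeR tested against a log2 fold change of 0.5, Cd52 and Lgals3 passed, as did 0.244% of all genes. Spp1 and Gpnmb had log2 fold changes near 1 that did not pass, and Lpl and Igf1 had values near 0. In 5 of the 10 genes, all but Axl of the 6, every DHT-treated mouse lay above every void-treated mouse, as in 5.39% of all genes. With DESeq2 the same 6 rose, against 5.84% of the genes it tested. The median log2 fold change was 1.03 over the 10 genes and 0.0094 over all genes. All 10 passed edgeR's expression filter. At least 10 counts in every library were found for 9 of them, and Clec7a had 7 counts in void replicate 11.

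**Figure D1:**
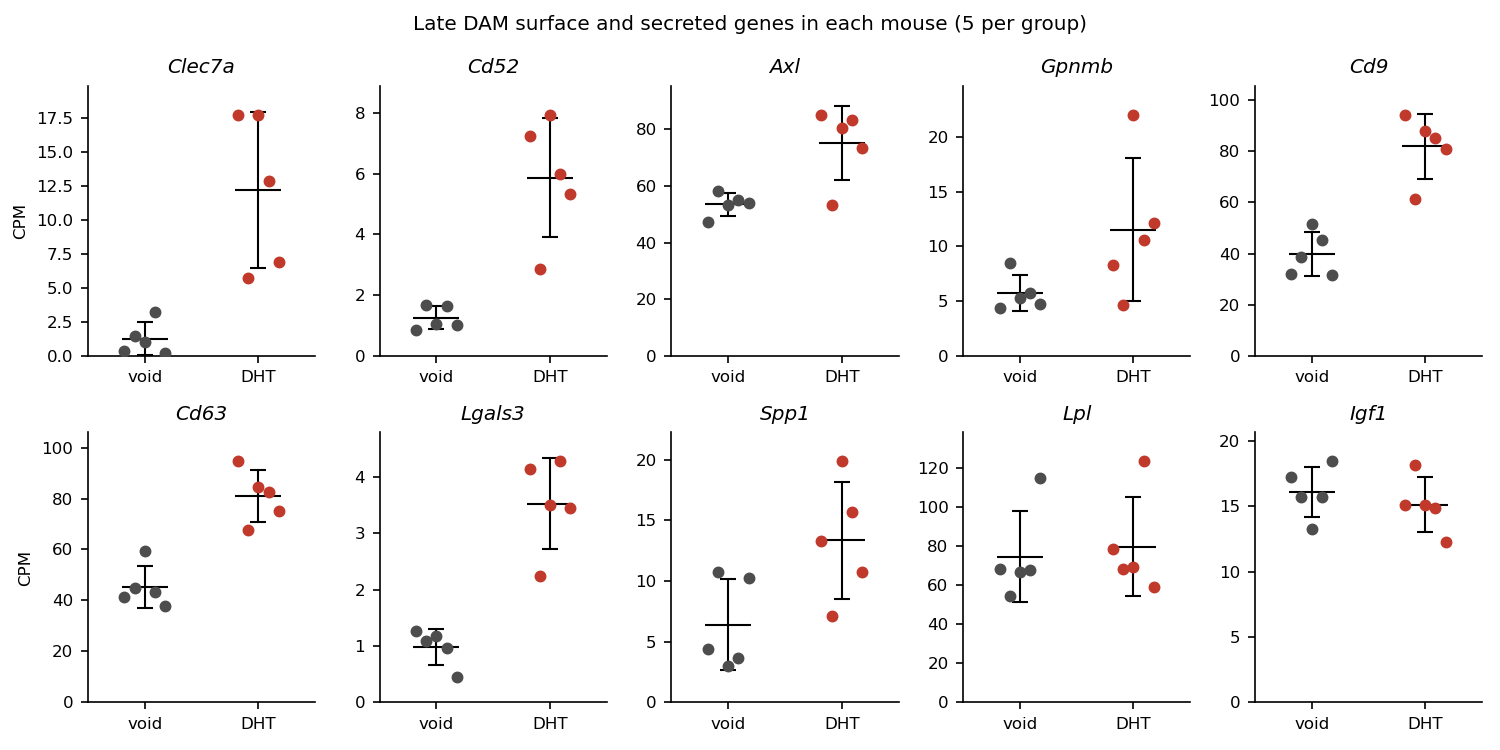
Level of each gene in CPM (vertical axis, from 0) in the 5 void-treated (grey) and 5 DHT-treated (red) females, with the group mean (long bar) and SD (whiskers). Points of Clec7a, Cd52, Cd9, Cd63 and Lgals3 do not overlap between the groups, while those of Axl, Gpnmb, Spp1, Lpl and Igf1 do.

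Among surface receptors, Clec7a (ENSMUSG00000079293), which encodes the beta-glucan receptor Dectin-1 and signals through Syk, was at 0.338, 1.5, 0.993, 3.21 and 0.210 CPM in void replicates 4, 5, 9, 10 and 11. In DHT replicates 1, 2, 3, 5 and 6 it was at 17.8, 5.73, 17.7, 12.9 and 6.94 CPM. The lowest treated mouse was above the highest void-treated mouse, and void replicate 10 stood above the other void-treated mice. The mean was 1.25 ± 1.21 CPM in controls and 12.2 ± 5.73 in treated mice (SD, n = 5 each). The log2 fold change was 3.36 (SE 0.58, adjusted p = 0.00990, edgeR), a 10.2-fold rise with a confidence interval from 2.08 to 4.63 on the log2 scale, and 3 of 17622 genes had a larger upward value. Without void replicate 10 the log2 fold change was 4.05. Raw counts of Clec7a were 7 to 87 with void and 232 to 846 with DHT, so its void level rested on few reads. It varied more among void-treated mice than any of the other genes, with a coefficient of variation of 97.0%.

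Cd52 (ENSMUSG00000000682) encodes a small lipid-anchored surface glycoprotein of leukocytes. It was at 0.867, 1.66, 1.06, 1.66 and 1.02 CPM in void replicates 4, 5, 9, 10 and 11, and at 7.24, 2.86, 7.94, 5.99 and 5.33 CPM in DHT replicates 1, 2, 3, 5 and 6. Every treated mouse was higher than every control, with DHT replicate 2 nearest to the controls. The mean went from 1.25 ± 0.380 to 5.87 ± 1.97 CPM (SD, n = 5 each), or a log2 fold change of 2.25 (SE 0.28, adjusted p = 0.00670, edgeR). Some exon bases of Cd52 are shared with Crybg2 on the opposite strand, whose own counts were 21 to 32 with void and 12 to 32 with DHT (log2 fold change -0.13). Whether reads were counted by strand is not given in the sources used here.

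Axl (ENSMUSG00000002602), the receptor tyrosine kinase that binds apoptotic cells through its ligand Gas6, was at 47.3, 58.3, 53.1, 54.9 and 54.0 CPM in void replicates 4, 5, 9, 10 and 11. The DHT replicates 1, 2, 3, 5 and 6 had 85.1, 53.3, 80.6, 83.3 and 73.5 CPM. DHT replicate 2 lay within the void range, and the other 4 treated mice lay above it. The mean was 53.5 ± 4.01 CPM in controls and 75.2 ± 13 in treated mice (SD, n = 5 each), and the log2 fold change was 0.49 (SE 0.11, adjusted p = 0.0283, edgeR). This call was the least stable of the 6: it was lost in 6 of the 10 fits that each left out a mouse, with a highest adjusted p of 0.0982 without DHT replicate 1. The other 5 genes that rose passed in all 10 of those fits.

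Gpnmb (ENSMUSG00000029816) encodes a transmembrane glycoprotein of lysosomes and the cell surface that phagocytes make when loaded with lipid. It was at 4.40, 8.5, 5.31, 5.76 and 4.70 CPM in void replicates 4, 5, 9, 10 and 11, and at 8.33, 4.61, 22, 10.6 and 12.1 CPM in DHT replicates 1, 2, 3, 5 and 6. DHT replicate 3 was far above the other treated mice, and DHT replicates 1 and 2 were below the highest void-treated mouse. The log2 fold change of 1.02 (SE 0.34, confidence interval 0.27 to 1.76) did not pass (unadjusted p = 0.0115, adjusted p = 0.119, edgeR). Without DHT replicate 3 the log2 fold change was 0.61, and without DHT replicate 2 it was 1.22 and passed (adjusted p = 0.0276).

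The tetraspanins Cd9 and Cd63, which organise receptors in membranes and mark exosomes, had the narrowest relative spread among the genes that rose without overlap. Cd9 (ENSMUSG00000030342) was at 32.1, 38.6, 51.4, 45.1 and 31.7 CPM in void replicates 4, 5, 9, 10 and 11, and at 94.1, 61.1, 88.0, 85.2 and 80.7 CPM in DHT replicates 1, 2, 3, 5 and 6. Its mean went from 39.8 ± 8.49 to 81.8 ± 12.6 CPM (SD, n = 5 each), or a log2 fold change of 1.04 (SE 0.15, adjusted p = 0.00670, edgeR). The groups were apart, with void replicate 9 the highest control.

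Cd63 (ENSMUSG00000025351), a tetraspanin of late endosomes and lysosomes, was at 41.4, 44.7, 59.5, 43.1 and 37.9 CPM in the same void-treated mice. In DHT replicates 1, 2, 3, 5 and 6 it was at 94.6, 67.5, 84.7, 82.7 and 75.2 CPM. Again void replicate 9 was the highest control and DHT replicate 2 the lowest treated mouse, and the groups did not overlap. The log2 fold change was 0.84 (SE 0.12, adjusted p = 0.00671, edgeR), with means of 45.3 ± 8.32 and 80.9 ± 10.2 CPM (SD, n = 5 each). Void replicate 9 was also the control with the most choroid plexus RNA, at a summed 3269 CPM, and void replicate 11, lowest for Cd9 and Cd63, had the least (360.7 CPM). Void replicate 4 went the other way, with the next most choroid plexus RNA (1720 CPM) and the second lowest Cd9 and Cd63 of the controls. With the choroid plexus level of each library as a covariate, the log2 fold change was 0.75 for Cd9 and 0.52 for Cd63, and neither passed. Of all 17622 genes, 0 passed in that fit. The pseudogene Cd63-ps had 1 to 3 counts with void and 10 to 17 with DHT, beside 23234 counts of Cd63 over all libraries, and Cd9-ps had 0.

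Among secreted proteins, Lgals3 (ENSMUSG00000050335) encodes galectin-3, a lectin that binds Trem2 and damaged lysosomes. It was at 1.27, 1.09, 1.18, 0.959 and 0.449 CPM in void replicates 4, 5, 9, 10 and 11 and at 4.15, 2.25, 3.50, 4.28 and 3.45 CPM in DHT replicates 1, 2, 3, 5 and 6. All treated mice were above all controls, and void replicate 11 stood below the other controls. The mean rose from 0.989 ± 0.322 to 3.53 ± 0.807 CPM (SD, n = 5 each), or a log2 fold change of 1.82 (SE 0.26, adjusted p = 0.00670, edgeR).

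Spp1 (ENSMUSG00000029304), which encodes the matrix protein and cytokine osteopontin, was at 4.44, 10.8, 2.98, 3.65 and 10.2 CPM in void replicates 4, 5, 9, 10 and 11. DHT replicates 1, 2, 3, 5 and 6 had 13.3, 7.16, 19.9, 15.7 and 10.8 CPM. Void replicates 5 and 11 lay within the range of the treated mice, and the other 3 controls lay below it. The log2 fold change of 1.06 (SE 0.37, confidence interval 0.25 to 1.88) did not pass (unadjusted p = 0.0151, adjusted p = 0.142, edgeR), and it passed in none of the fits that left out a mouse. Void replicates 5 and 11, the controls with the most Spp1, were those with the least choroid plexus RNA, at summed levels of 389.5 and 360.7 CPM. They were also the controls with the most fibroblast marker RNA (144.7 and 153.1 CPM) and the most mural, or vessel wall, marker RNA (275.2 and 242.7 CPM). DHT replicate 3, highest for Spp1, was the highest treated mouse for both, at 149.9 and 266.2 CPM. Both sums overlapped between the groups. The part of these cells in the level of Spp1 was not tested.

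Lpl (ENSMUSG00000015568), the enzyme that frees fatty acids from lipoproteins, was at 68.4, 54.5, 66.7, 68.0 and 114.7 CPM in void replicates 4, 5, 9, 10 and 11. In DHT replicates 1, 2, 3, 5 and 6 it was at 78.7, 68.0, 69.4, 123.3 and 59.3 CPM. A single mouse in each group stood high, void replicate 11 and DHT replicate 5, and the other 8 mice were intermixed. The log2 fold change was 0.10 (SE 0.22, adjusted p = 0.892, edgeR) with a confidence interval from -0.38 to 0.58, and it was -0.15 without DHT replicate 5.

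Igf1 (ENSMUSG00000020053), a growth factor that supports neurons and myelin, was at 17.2, 15.8, 13.3, 15.8 and 18.5 CPM in void replicates 4, 5, 9, 10 and 11. The treated mice had 15.1, 18.2, 15.1, 14.9 and 12.3 CPM in the order of DHT replicates 1, 2, 3, 5 and 6. The groups overlapped almost fully. The log2 fold change was -0.09 (SE 0.11, adjusted p = 0.766, edgeR) with a confidence interval from -0.33 to 0.15, so a change of the size seen for Cd9 lay outside the interval. DHT replicate 2, the treated mouse with the lowest level of 8 of the 10 genes, had the highest level of Igf1 among treated mice.

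Per length of exon, Cd9 was the most abundant of the genes in both groups, at 19.5 ± 4.16 RPKM (CPM divided by the summed exon length in kilobases) in controls and 40.0 ± 6.14 in treated mice (SD, n = 5 each). The order of RPKM levels with void was Cd9, Cd63, Axl, Lpl, Spp1, Igf1, Cd52, Gpnmb, Lgals3 and Clec7a, and the ranges of all neighbours in it overlapped. With DHT it was Cd9, Cd63, Axl, Spp1, Lpl, Cd52, Clec7a, Lgals3, Gpnmb and Igf1, and neighbours did not overlap for Cd9 over Cd63 and for Cd63 over Axl alone. Clec7a was last of the 10 with void, at 0.474 RPKM, and seventh with DHT, at 4.63. Igf1 went from the sixth place at 1.63 RPKM to the last at 1.53. The 10 genes summed to 217.7 to 273.5 CPM with void and to 290.7 to 438.8 with DHT.

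Treated mice differed among themselves in a shared way. Averaged over the 10 genes, the log2 level above the void mean was 1.38, 0.65, 1.52, 1.40 and 1.05 in DHT replicates 1, 2, 3, 5 and 6. DHT replicate 2 was the lowest treated mouse for all genes but Lpl and Igf1, and it had the lowest pan-microglia level too. DHT replicate 1, with the highest pan-microglia level, was highest for Clec7a, Cd9, Cd63 and Axl. DHT replicate 3 was highest for Spp1, Gpnmb and Cd52, and DHT replicate 5 for Lpl and Lgals3.

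**Figure D2:**
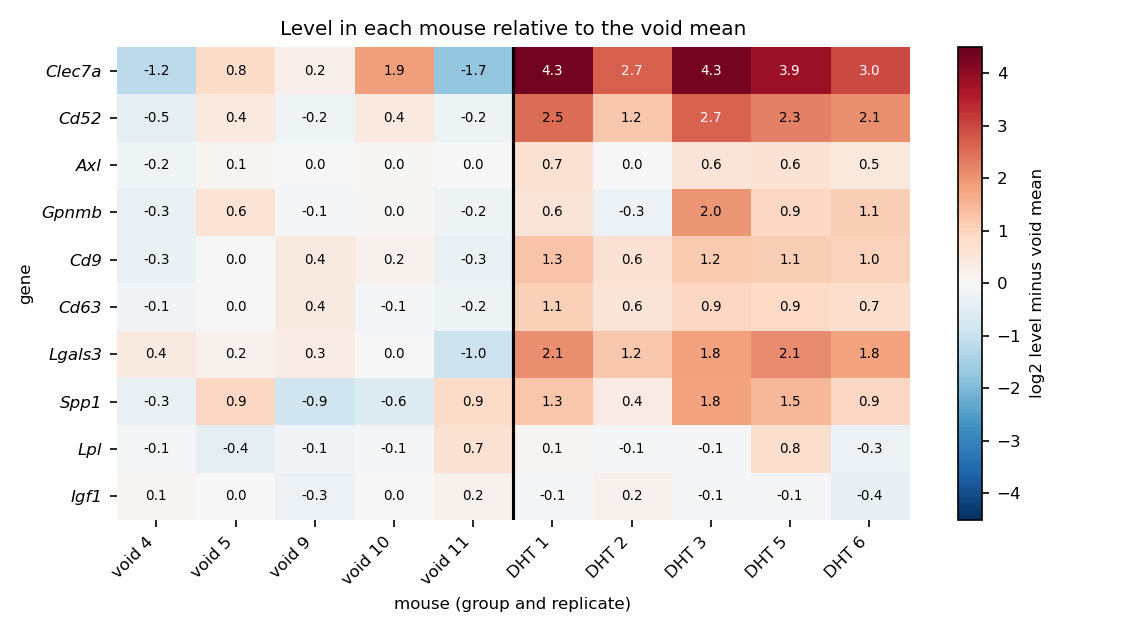
Log2 level of each gene (rows) in each mouse (columns, void to the left of the black line and DHT to the right) minus the mean log2 level of the void-treated mice. The row of Clec7a holds the largest values, DHT replicate 2 is paler than the other treated mice in all rows but those of Lpl and Igf1. In the row of Lpl a single mouse of each group, void replicate 11 and DHT replicate 5, stands above the rest.

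The change of a microglial gene was next set against the microglial signal itself, by scaling libraries on marker lists in place of all genes. Scaled on 13 homeostatic microglia genes, which moved the all-gene median of the log2 fold change to -0.40, 5 of the 10 genes were higher and 1 was lower, against 3.28% and 56.7% of all genes. Clec7a was at 2.93, Cd52 at 1.82, Lgals3 at 1.40, Cd9 at 0.62 and Cd63 at 0.41 on the log2 scale. Axl no longer passed (0.07, adjusted p = 0.578, edgeR), and Igf1, at -0.49 (adjusted p = 0.00968), was lower by about as much as the median gene.

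Scaled on 14 pan-microglia genes, which moved the median of all genes to -0.92, 3 of the 10 genes were higher and 3 lower, against 1.23% and 89.0% of all genes. Clec7a (2.39, adjusted p = 1.11e-08, edgeR), Cd52 (1.26) and Lgals3 (0.85, adjusted p = 0.00270) rose more than the pan-microglia genes did. The SE of Clec7a was 0.29 in this fit and 0.58 with scaling on all genes, although its fold change was smaller here. Because this scaling shifts every gene of a library together, p-values of this fit do not measure the spread of a single gene between mice. They are not stronger evidence than those with scaling on all genes. Cd9 (0.09), Cd63 (-0.12), Spp1 (0.06) and Gpnmb (0.04) had values near 0, so their differences were close to those of the pan-microglia genes. Axl was lower, at -0.47 (adjusted p = 0.0224), as were Lpl at -0.87 and Igf1 at -1.02. Scaled on neuron genes, which moved the median to 0.11, the same 6 genes rose as with all genes (6.87% of all genes rose), and Igf1 was at 0.02.

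**Figure D3:**
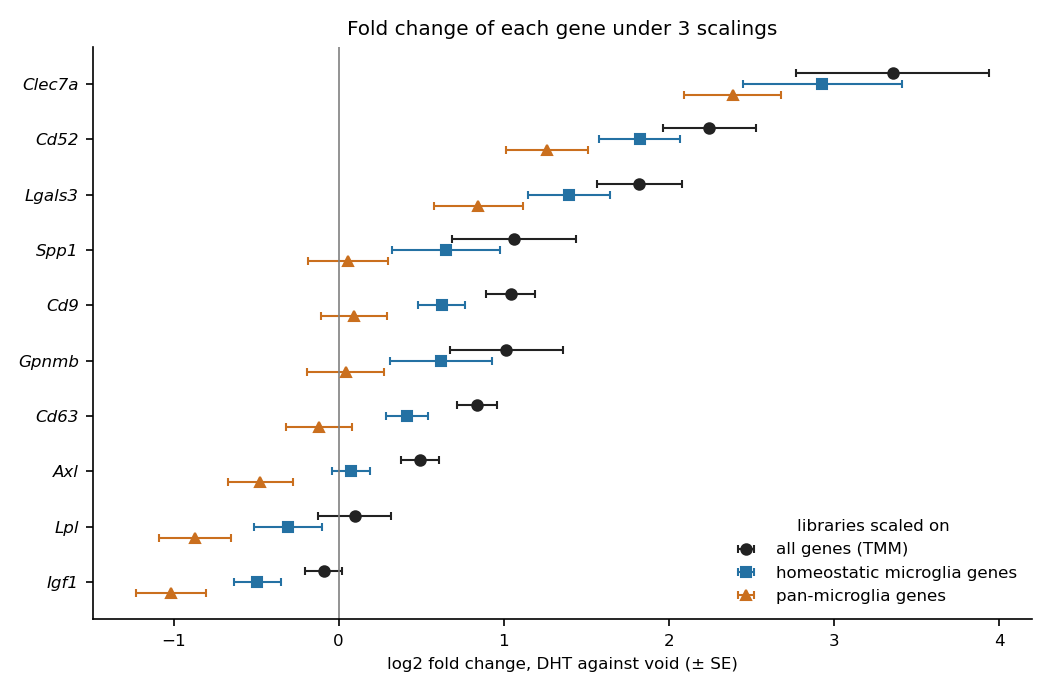
Log2 fold change of each gene, DHT against void, with its SE (horizontal axis), under scaling on all genes by TMM (black circles), on homeostatic microglia genes (blue squares) and on pan-microglia genes (orange triangles). Clec7a, Cd52 and Lgals3 are above 0 under all 3, Cd9, Spp1 and Gpnmb come near 0 under pan-microglia scaling, Axl, Cd63 and Lpl cross it, and Igf1 is below it under all 3.

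With the choroid plexus level of each library as a covariate, 0 of the 10 genes and 0 of 17622 genes (0.00%) passed edgeR's test, and 8 of the 10 were higher at an unadjusted p under 0.05, as were 5.60% of all genes (in the fit without it, 8 of the 10 and 13.1%). The log2 fold changes stayed near their values for Clec7a (3.32) and Axl (0.57), were smaller for Lgals3 (1.28), and were larger for Cd52 (2.50), Gpnmb (1.35) and Spp1 (2.49, unadjusted p = 0.000229). The choroid plexus level did not overlap between the groups, so it and the treatment cannot be told apart.

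Other genes of the DAM program moved with these. Of 10 genes listed here as early DAM genes, 7 rose and 0 fell (5.22% and 0.261% of all genes), with a median log2 fold change of 0.66. That list also held Trem2 itself, and the step to which each listed gene belongs was not tested in these data. Lyz2, the lysozyme of phagocytes, had the largest log2 fold change of them, at 1.97. The receptor Trem2 followed at 1.32 and its adaptor Tyrobp at 1.31, each at an adjusted p under 0.05. Timp2, a protease inhibitor, had the smallest, at 0.10 (adjusted p = 0.644, edgeR). Under pan-microglia scaling 1 of the 10 rose and 5 fell, where 1.23% of all genes rose and 89.0% fell.

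Of 16 other late DAM genes, 11 rose and 0 fell (5.22% and 0.261% of all genes), with a median log2 fold change of 0.63. The cystatin Cst7 was at 3.59, the integrin Itgax at 3.35 and the inhibitory receptor Lilrb4a at 2.12. The smallest value was that of the adhesion gene Cadm1, at -0.20 (adjusted p = 0.148, edgeR). Under pan-microglia scaling 4 of the 16 rose and 7 fell, again beside 1.23% and 89.0% of all genes.

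Of 13 homeostatic microglia genes, 5 rose and 0 fell (5.22% and 0.261% of all genes), with a median log2 fold change of 0.38. The receptor Gpr34 was at 0.57 and passed. Olfml3 was at 0.61 without passing (adjusted p = 0.190, edgeR), and the purinergic receptor P2ry12 had the smallest value, at 0.16 (adjusted p = 0.479). Under pan-microglia scaling 0 of the 13 rose and 9 fell (1.23% and 89.0% of all genes). The number that rose was 2 without void replicate 4, void replicate 11 or DHT replicate 5, and 3 without void replicate 5, void replicate 10, DHT replicate 1 or DHT replicate 3. In the same order of mice left out, 2.77%, 1.97% and 3.64% of all genes rose, and 3.80%, 3.09%, 2.23% and 2.93%. Of 14 pan-microglia genes, 12 rose and 0 fell (5.22% and 0.261% of all genes), with a median of 1.05. The complement gene C1qa was at 1.3, the phosphatase Ptprc at 1.25 and the protease Ctss at 1.23. Hpgds had the smallest value, at 0.54 (adjusted p = 0.0943, edgeR).

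Ligands, receptors and relatives of the 10 genes were examined on 9 lists of 61 genes, of which 56 were tested. Of these 15 rose and 0 fell (5.22% and 0.261% of all genes), with a median log2 fold change of 0.28. Under pan-microglia scaling 2 rose and 39 fell (1.23% and 89.0% of all genes). The number that rose was 7, 9 and 5 without void replicates 4, 10 and 11, 6 without DHT replicate 1 or DHT replicate 3, and 22 without DHT replicate 2. The share of all genes that rose moved too. It was 2.77%, 3.09% and 1.97% without those void replicates, 2.23% and 2.93% without DHT replicates 1 and 3, and 5.76% without DHT replicate 2.

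In the signalling chain of Clec7a, 1 of 7 genes rose, the exchange factor Vav1 (log2 fold change 0.78, adjusted p = 0.0222, edgeR). Of the ligands and kin of Axl, 1 of 4 rose: the ligand Gas6, from 85.5 ± 21.1 to 126 ± 14.0 CPM (SD, n = 5 each; log2 fold change 0.56, adjusted p = 0.0397). Mertk and Tyro3, the receptors of the same family, were at 0.04 and -0.15 without passing. Of the tetraspanins and their partners, 3 of 8 rose, namely Cd82 (0.71), Cd53 (0.76) and Cd37 (0.75), the last of them at an adjusted p of 0.0448.

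Of the receptors of Spp1, 1 of 6 rose, the integrin subunit Itgb5 (0.67, adjusted p = 0.00761, edgeR). Of 8 tested genes of lipoprotein and lipid handling beside Lpl, 2 rose: the apolipoprotein Apoc1 (0.88, adjusted p = 0.0393) and the lipid droplet protein Plin2 (0.45, adjusted p = 0.0300). Of 12 genes of the Igf1 axis, 2 rose, namely the growth factor Igf2 (1.68, adjusted p = 0.00931), which choroid plexus is known to make, and the binding protein Igfbp7 (0.44, adjusted p = 0.0361). The receptor Igf1r was at 0.05 without passing. With the choroid plexus covariate Igf2 was at 1.13 without passing.

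Of the 5 tested regulators and kin of Gpnmb, Mitf, the factor that drives Gpnmb in pigment cells and macrophages, rose (0.70, adjusted p = 0.0176, edgeR). Of 4 galectins and galectin ligands, 3 rose: Lgals1 (0.72), Lgals9 (0.95) and Lgals3bp, which binds galectin-3 and responds to interferon, from 15.6 ± 3.80 to 58.4 ± 20.8 CPM (SD, n = 5 each; log2 fold change 1.91, adjusted p = 0.00670). Of the 2 tested genes linked to Cd52, 1 rose, the phosphatase Ptpn6 (1.23, adjusted p = 0.00670), which inhibitory Siglec receptors recruit. Under pan-microglia scaling Lgals3bp (0.92) and Igf2 (0.73) were the 2 that remained higher.

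**Figure D4:**
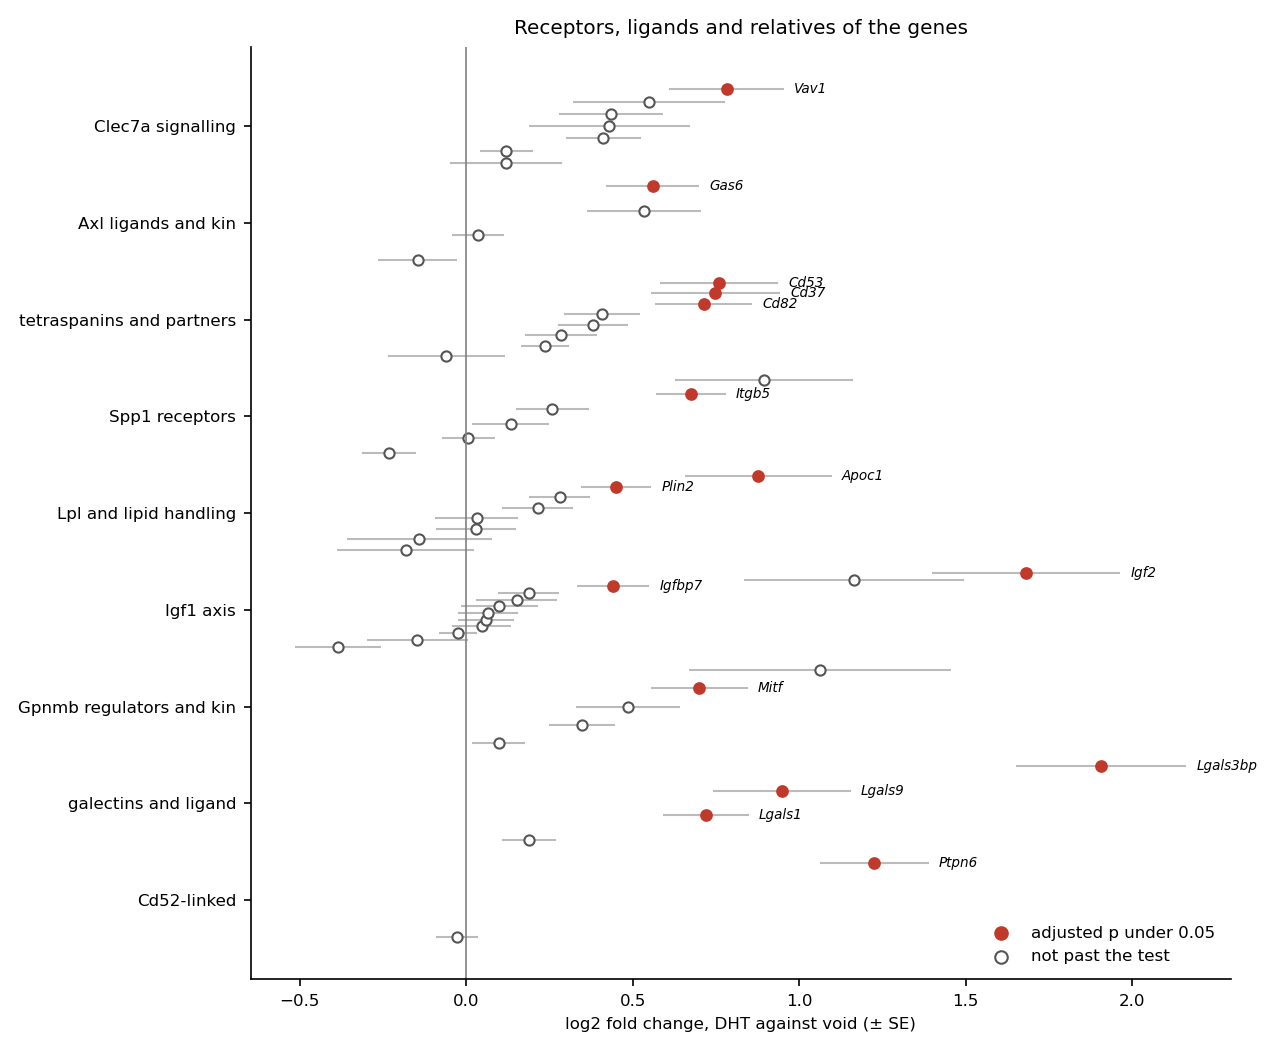
Log2 fold change (DHT against void, with SE) of each tested gene on the 9 lists of ligands, receptors and relatives, 1 point per gene. Red points passed at an adjusted p under 0.05 and open points did not; all 15 red points lie above 0 under scaling on all genes, and under pan-microglia scaling 2 of all the points were higher.

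The genes outside the list whose profile over the 10 mice was most like the mean profile of the 10 genes were Irf8, Lat2, Itgb2, Gfap and Ctss. Likeness was measured as the root mean square difference of log2 level over 10 mice, each gene centred on its void mean. It was 0.109 for Irf8, a myeloid transcription factor, 0.143 for the adaptor Lat2, 0.143 for the integrin Itgb2, 0.163 for the astrocyte filament gene Gfap and 0.179 for Ctss. Irf8 and Ctss are on the pan-microglia list. Gfap was the 1 gene of 8 astrocyte markers that rose (log2 fold change 1.18, adjusted p = 0.00761, edgeR).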

How the data were processed

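Hippocampal RNA of 5 void-treated and 5 DHT-treated female P301S mice was sequenced as mRNA libraries made from 500 ng of total RNA, 1 per mouse. The authors trimmed and filtered reads with HTStream, aligned them with STAR 2.7.10b and deposited whole-number read counts for each gene, not normalized. The study's methods name mm10 and the submitters' processing notes name GRCm39, so no coordinates were taken from the counts, and annotation release, strand and reads matching several genes are not given in the sources used here. Symbols and exon lengths came from GENCODE M21 (51948 of 56884 identifiers matched). The 10 genes and all lists (230 genes, all matched) were chosen with earlier results of these data known.

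Groups came from the labels. The tests used edgeR 4.0.16 in R 4.3.3, with TMM scaling, its expression filter by group (17622 genes kept), quasi-likelihood fits and p-values adjusted by Benjamini-Hochberg over every gene kept. Standard errors were derived from the log2 fold change and its F statistic, and confidence intervals are at 95%. CPM uses TMM library sizes. Marker lists were compared by the summed CPM of their genes with two-sided exact permutation tests. Scaling on marker lists and the choroid plexus covariate used the mean log2 CPM of the list (prior count 2). Both tools were also run on 1 simulated data set of 17622 genes, drawn from edgeR's own fitted dispersions, with 100 genes changed at each size. There edgeR recovered 77.0% of genes changed by 1 and 97.0% of those changed by 2 on the log2 scale, with 4.92% of its calls false. DESeq2 1.42.0, the tool of the study, recovered 80.0% and 99.0%, with 16.4% false. This setting can favour edgeR and held few changed genes, so the shares do not give the false calls of either tool on the real data.

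All 10 genes are named, each partner gene that passed, the 3 largest and 1 smallest fold change of each microglial list, and the 5 most similar profiles. Partner genes left untested for too few counts included Gpihbp1, Apoc2, Tfec and Siglecg. The results of some listed genes are not reported here. Mertk, Tyro3, Igf1r and the genes overlapping a listed gene were named after their values were seen. Alternatives were DESeq2, other normalizations and filters, scaling on marker lists, a choroid plexus covariate, fold limits and leaving out each mouse.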

Additional observations from a re-analysis of the deposited data

Results flagged for a closer look

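The level of Lgals3 in void replicate 11, 0.449 CPM, lay apart from the other 4 void-treated mice, which were at 0.959 to 1.27 CPM. The gap was measured on log2 CPM, where void replicate 11 was at -0.987 and the other void-treated mice at 0.0206 to 0.404. On that scale its gap to the nearest of them was 0.724 of the group's range, above Dixon's 95% critical value for 5 samples. The flag holds for log2 CPM and not for the CPM values themselves. Of 20 groups examined (10 genes in void and DHT), 1 was picked out in this way, and chance gives about 1. Without this mouse, the log2 fold change of Lgals3 was 1.61 and still passed.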

How the results depend on the processing

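No paired analysis was possible because the labels give no litter and pair no void-treated mouse with a DHT-treated one. The study states that littermates were assigned at random to the hormone treatment. DESeq2, other normalizations, the filters and neuron scaling gave 5 or 6 higher genes of the 10. The number was 3 with pan-microglia scaling, 2 when edgeR tested against a log2 fold change of 0.5 (0.244% of all genes; Cd52 and Lgals3; Clec7a had an adjusted p of 0.0507), and 0 with the choroid plexus covariate, and 1 gene was lower with homeostatic and 3 with pan-microglia scaling. With a mouse left out, 5 to 7 of the 10 were higher and 0 lower. The same fits gave 1.97% to 5.98% of all genes higher and 0.0280% to 0.433% lower. The sign turned for Cd63 (-0.12), Axl (-0.47) and Lpl (-0.87) with pan-microglia scaling, for Lpl with homeostatic scaling (-0.31) and without DHT replicate 5 (-0.15), and for Igf1 with neuron scaling (0.022) and the covariate (0.10). With a mouse left out, Lpl ranged from -0.15 to 0.28. Of the values of single genes under alternatives, 165 kept direction and call, 14 lost the call, 3 gained it and 7 turned.

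Of partner genes, 6 were higher and 17 lower with homeostatic scaling, 2 and 39 with pan-microglia scaling, 0 higher with the covariate, 1 lower with DESeq2, and 5 to 22 higher and 0 to 1 lower with a mouse left out. Numbers of higher and lower genes with homeostatic and with pan-microglia scaling were, for early DAM genes, 5 and 1, then 1 and 5; for other late DAM genes, 7 and 5, then 4 and 7; for homeostatic genes, 1 and 0, then 0 and 9; and for pan-microglia genes, 11 and 0, then 0 and 2. Of all genes, 3.28% were higher and 56.7% lower in the first, and 1.23% and 89.0% in the second. Homeostatic genes under homeostatic scaling and pan-microglia genes under pan-microglia scaling centre near 0 by construction. Their medians there were -0.02 and 0.06, so these counts do not test those lists. With the covariate, 0 genes of these 4 lists and 0.00% of all genes were higher. DESeq2 gave 1 lower late DAM gene. With a mouse left out, 2 to 5 homeostatic genes were higher. The cause was not tested. Low counts limit Clec7a with void, which no longer enters the test when 10 counts in every library are required.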
